A study of Danio rerio with 8 samples.

Results

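The miR-19 and miR-25/miR-92/miR-363 groups comprised 8 zebrafish miRNAs of the 248 on the chip, dre-miR-19a, dre-miR-19b, dre-miR-19c and dre-miR-19d with one seed, and dre-miR-25, dre-miR-92a, dre-miR-92b and dre-miR-363 with another. They were taken by probe name, without star forms, by a rule that used no measured value. The members were nevertheless chosen with earlier results of these data known. Small RNA, size-fractionated from total RNA of Danio rerio embryos at 72 hours post fertilization (hpf), was tagged and hybridized with 1 dye (Cy5) to a microfluidic miRNA chip, each sample on an array of its own. There were 4 arrays of MC-RR-treated embryos and 4 of control embryos, numbered as replicates 1 to 4 in each treatment. MC-RR, or microcystin-RR, is a cyclic peptide toxin of bloom-forming cyanobacteria that inhibits the serine/threonine protein phosphatases PP1 and PP2A. The methods describe injection of MC-RR in saline into the yolk at an early cleavage stage. The paper names saline as the control injection in its experiment on blood vessels. The number of embryos in each RNA sample and the fish line used for the arrays are not given in the sources used here. The comparison asked whether the 2 seed groups differed between MC-RR-treated and control embryos.

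A miRNA recognizes target mRNAs mainly through its seed, bases 2 to 8 from the 5′ end, so miRNAs that share a seed share many predicted targets. Vertebrate genomes hold several related clusters of the miR-17-92 type, each a stretch of neighbouring precursors that are usually transcribed together and that belong to a few seed families. The miR-19 family is the member known from mouse lymphoma models to carry much of the oncogenic activity of the cluster. The miR-25/miR-92/miR-363 family includes miR-92a, which in mammalian endothelial cells restrains vessel growth. miR-25 belongs to the miR-106b-25 type cluster and miR-363 to the cluster with miR-106a.

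The mature sequences listed for the 8 probes are given below because the contrast between near-identical probes recurs through the results. Capitals mark the seed, and positions were counted from 1 at the 5′ end.
dre-miR-19a: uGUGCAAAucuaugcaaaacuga
dre-miR-19b: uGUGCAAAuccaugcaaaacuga
dre-miR-19c: uGUGCAAAuccaugcaaaacucg
dre-miR-19d: uGUGCAAAcccaugcaaaacuga
dre-miR-25: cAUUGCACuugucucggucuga
dre-miR-92a: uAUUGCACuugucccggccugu
dre-miR-92b: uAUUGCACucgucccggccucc
dre-miR-363: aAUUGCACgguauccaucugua

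Within the miR-19 group, dre-miR-19a and dre-miR-19b differed by 1 base, U11C, and dre-miR-19b and dre-miR-19d by 1 base, U9C. dre-miR-19c differed from dre-miR-19b by 2 bases, G22C and A23G, at the 3′ end. Within the other group, dre-miR-92a and dre-miR-92b differed by 3 bases, U10C, G21C and U22C, and dre-miR-25 and dre-miR-92a by 4 of 22. dre-miR-363 stood apart, with 12 or 13 of 22 bases different from each of the others. No difference fell within the seed. Probes this similar can share signal, so the values of 2 near-identical probes cannot be taken as independent. The extent of such sharing was not tested. The share of G and C was 34.8% in dre-miR-19a and 63.6% in dre-miR-92b, the extremes of the 8. Among the 248 zebrafish probes, each seed was found in only the 4 members of its group.

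By gene order in the GRCz12tu assembly of RefSeq, used only for names and neighbours, the precursors fell into several clusters, taken as genes with starts less than 5000 bases apart. mir92a-1, dre-mir-19b, dre-mir-20a, dre-mir-19a, mir18a and mir17a-1 lay together, as did mir25, mir19d and mir93, and mir363, mir19c, mir20b and mir18c. A second copy of miR-92a, mir92a-2, lay with mir18b and mir17a-2, and mir92b had no neighbour in the list. The arrays measure mature miRNA, so the 2 precursors of miR-92a cannot be told apart.

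The median intensity over the 248 zebrafish probes was 106 to 384 on the MC-RR arrays and 199 to 375 on the control arrays, and MC-RR replicate 2 was the dimmest. The 95th percentile of the 206 blank spots, which served as the limit of detection, was 49.7 to 188 on the MC-RR arrays and 72.7 to 512 on the control arrays. Control replicate 4 had the 512, and only 71 miRNAs exceeded it there. dre-miR-19b, dre-miR-19d, dre-miR-25, dre-miR-92a and dre-miR-92b exceeded the limit on all 8 arrays. dre-miR-19a and dre-miR-363 exceeded it on 4 MC-RR arrays and 3 control arrays, missing control replicate 4. dre-miR-19c exceeded it on 3 MC-RR arrays and 3 control arrays, missing MC-RR replicate 2 and control replicate 4. All 8 miRNAs thus passed the filter of 4 arrays of 8, which 187 miRNAs passed. Their 10 spots per array had a median coefficient of variation of 8.75%, with a range of 4.49% to 19.8%. As a check of the tissue, dre-miR-124 (neurons) and dre-miR-122 (liver) were above the limit on 4 MC-RR arrays and 3 control arrays, and dre-miR-133a (muscle) on 4 and 4.

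No member of either group passed the test. At a limma p under 0.05 before adjustment there were 0 of the 8, against 16 of all 187 tested miRNAs (8.56%), 8 of them lower (4.28%) and 8 higher (4.28%). After Benjamini-Hochberg adjustment 0 of 187 (0%) were under 0.05. The smallest limma p among the 8 was 0.224, for dre-miR-25, and their adjusted p ran from 0.857 to 0.962. Of their log2 fold changes, MC-RR over control, 6 were below 0 and 2 above, but 5 were below 0 with quantile normalization or on the deposited normalized values, and 3 with median scaling. Their median was -0.26, against -0.060 over all tested miRNAs. Without MC-RR replicate 2 the median of the 8 was 0.042, with 3 below 0, with median scaling it was 0.016, and without control replicate 2 it was -0.36, with all 8 below 0. When same-numbered arrays were blocked in limma, the count was again 0 of the 8, against 30 of 187 (16%), 19 of them lower (10.2%) and 11 higher (5.88%). The MC-RR and control arrays overlapped for each of the 8, while they did not for 6 of 187 (3.21%). In whole embryos, fewer cells of a type and less RNA per cell cannot be told apart.

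**Figure D1:**
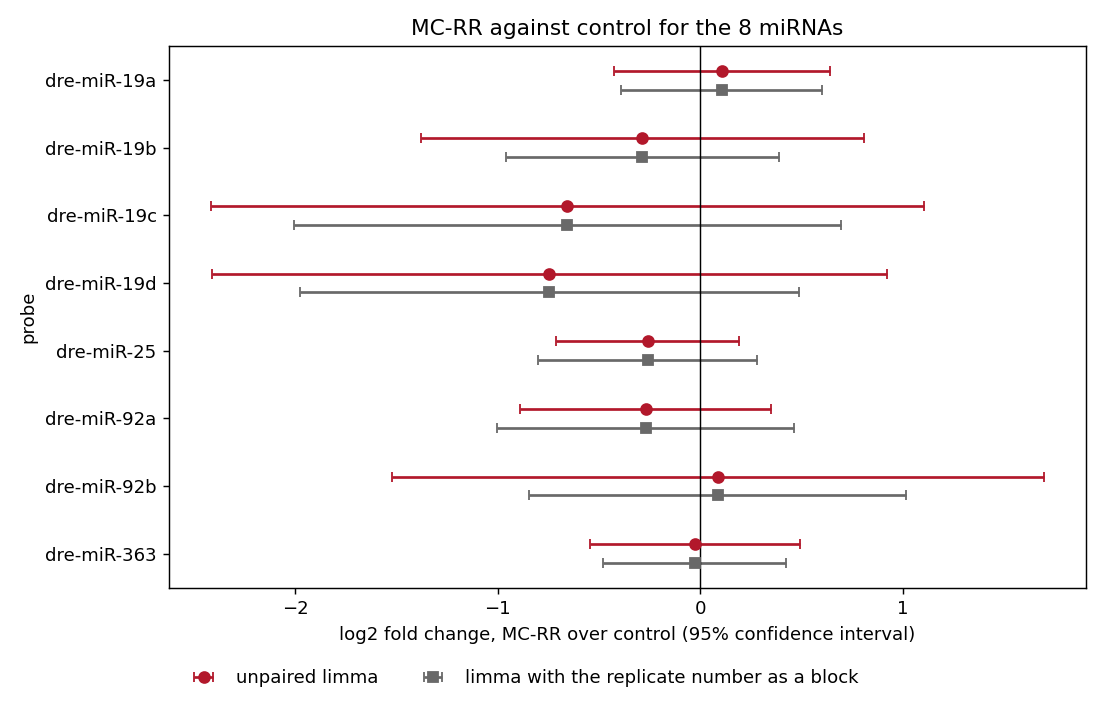
Log2 fold change, MC-RR over control (x axis), for each of the 8 miRNAs (y axis), with 95% confidence intervals from limma without pairing (red circles) and from limma blocked on replicate number (grey squares). Every interval crosses 0, and the widest, those of dre-miR-19c, dre-miR-19d and dre-miR-92b, span more than 3 log2 units without pairing.

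The intervals state what the arrays could show. For dre-miR-25 the 95% interval of the log2 fold change was -0.71 to 0.19, for dre-miR-19a -0.43 to 0.64 and for dre-miR-363 -0.55 to 0.49. For dre-miR-19c it was -2.42 to 1.11 and for dre-miR-92b -1.52 to 1.70. These are intervals without pairing, and the last 2 hold differences of 1 log2 unit in either direction. With same-numbered arrays blocked, the interval was -2.01 to 0.70 for dre-miR-19c and -0.84 to 1.02 for dre-miR-92b. Neither of these blocked intervals held 1 log2 unit in both directions. The smallest limma p of the 8 with the block was 0.180, for dre-miR-19d, with an interval of -1.98 to 0.49. The pooled SD between replicates had a median of 0.58 over the 8 miRNAs, against 0.34 over all 187.

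The normalized log2 signal of dre-miR-19a was 9.74, 9.73, 9.18 and 9.50 on MC-RR replicates 1 to 4 and 9.95, 8.99, 9.37 and 9.41 on control replicates 1 to 4. The groups overlapped, and the MC-RR array was higher in 2 of the 4 same-numbered pairs and lower in 2. The mean was 9.54 ± 0.26 with MC-RR and 9.43 ± 0.40 in controls (SD, n = 4 each), a log2 fold change of 0.11 (SE 0.23). The limma p was 0.656 and the two-sided exact permutation p 0.686, where 4 arrays against 4 allow none below 0.0286. Without control replicate 2 the log2 fold change was -0.040. The signal of dre-miR-19a on control replicate 4 was not above the blank limit.

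dre-miR-19b, which differs from dre-miR-19a at base 11 alone, had 11.17, 8.80, 10.08 and 10.28 on the MC-RR arrays and 11.04, 10.02, 10.17 and 10.24 on the control arrays. MC-RR replicate 2 was the lowest of the 8 and both arrays numbered 1 were the highest. This gave a log2 fold change of -0.29 (SE 0.48), limma p = 0.564, exact permutation p = 0.743.

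For dre-miR-19c the signal was 10.75, 6.75, 9.48 and 9.48 on the MC-RR arrays and 10.55, 9.38, 9.65 and 9.50 on the control arrays. Again MC-RR replicate 2 was lowest and both arrays numbered 1 were highest, and the other 5 arrays lay within a narrow band. The mean was 9.11 ± 1.69 with MC-RR and 9.77 ± 0.53 in controls (SD, n = 4 each). Its log2 fold change was -0.66 (SE 0.77), limma p = 0.417, exact permutation p = 0.686. It was -1.82 with subtraction of the blank median and -0.98 on the deposited normalized values. The signal of dre-miR-19c was not above the blank limit on MC-RR replicate 2 or on control replicate 4.

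dre-miR-19d too was lowest on MC-RR replicate 2 and highest on both arrays numbered 1, with 11.10, 7.50, 10.40 and 10.41 on the MC-RR arrays and 11.20, 10.05, 10.58 and 10.57 on the control arrays. It was the one member that was lower with MC-RR in all 4 pairs, which held for 39 of 187 miRNAs (20.9%), while 63 of 187 (33.7%) went in one direction in all 4 pairs and 24 (12.8%) were higher in all 4. The fold change on the log2 scale was -0.74 (SE 0.73), limma p = 0.334, exact permutation p = 0.543. In 3 of the pairs the difference was between -0.17 and -0.10, and in the pair numbered 2 it was -2.55.

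**Figure D2:**
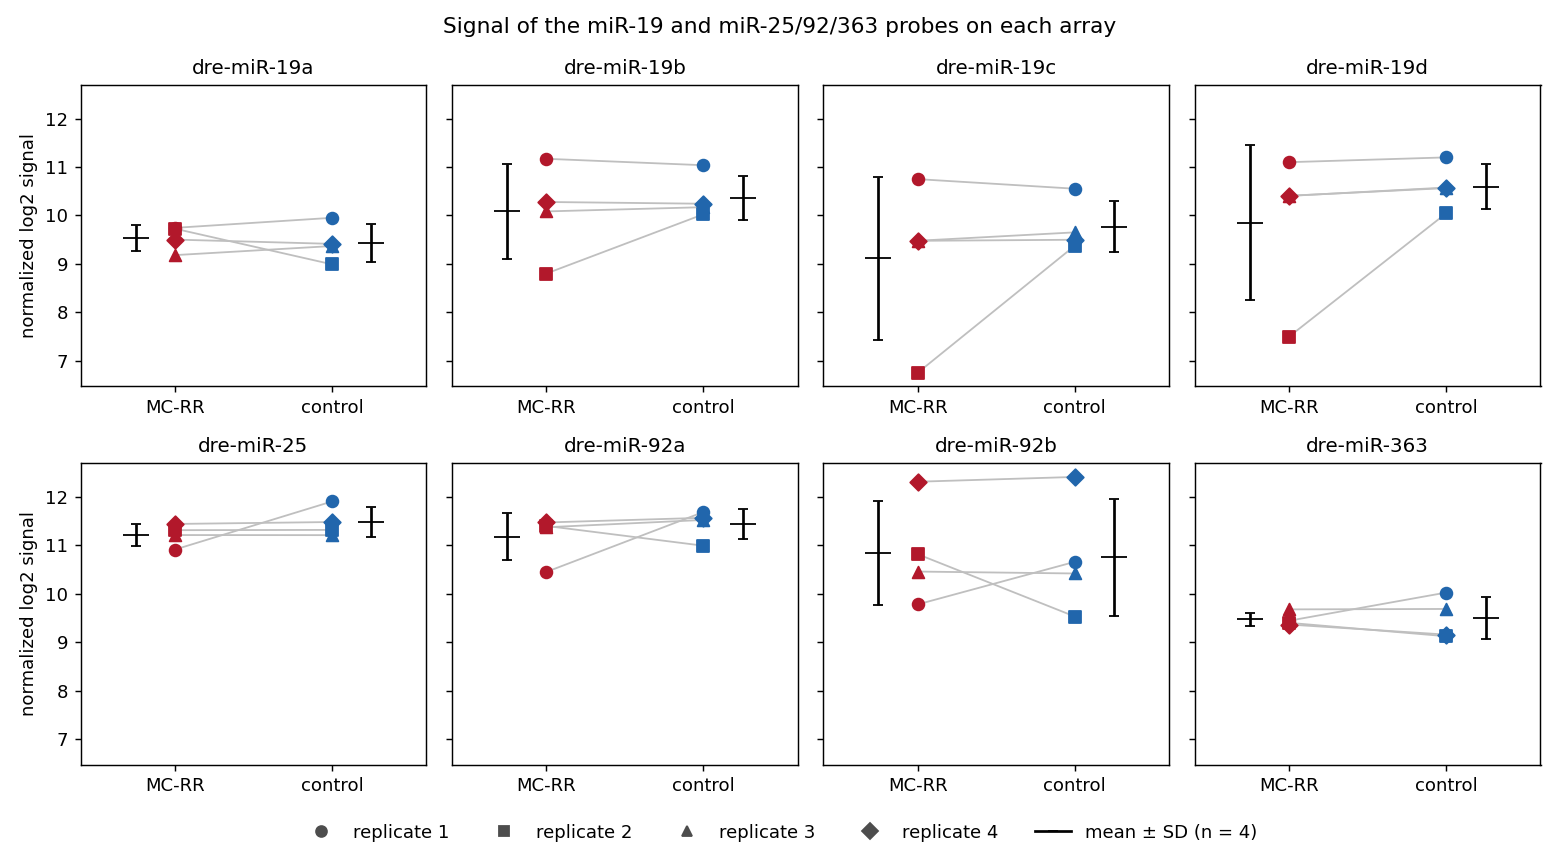
Normalized log2 signal (y axis) of the 8 miRNAs on the 4 MC-RR arrays (red) and the 4 control arrays (blue), with marker shapes for the replicate numbers, grey lines between same-numbered arrays, and black bars for the mean ± SD (n = 4). The MC-RR replicate 2 square lies far below the other arrays for dre-miR-19b, dre-miR-19c and dre-miR-19d and among them for dre-miR-19a, and both replicate 4 diamonds lie above the rest for dre-miR-92b.

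The lower means of dre-miR-19b, dre-miR-19c and dre-miR-19d rested mainly on MC-RR replicate 2. On that array they lay 1.22, 2.62 and 2.55 log2 units below the lowest of the other 7 arrays. dre-miR-19a was 0.25 above the mean of the other 3 MC-RR arrays there, where dre-miR-19b was 1.71 below. Without MC-RR replicate 2 the log2 fold changes were 0.14 for dre-miR-19b, 0.13 for dre-miR-19c and 0.040 for dre-miR-19d, all above 0. With both arrays numbered 2 left out and same-numbered arrays blocked, dre-miR-19d was still below 0, at -0.14.

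The low values were seen on the single spots of the array. The 10 spots of dre-miR-19b on MC-RR replicate 2 read 252.68 to 329.34, and all 10 were above the blank limit of 55.8. Those of dre-miR-19d read 95.15 to 117.69, again all 10 above it. For dre-miR-19c they read 49.88 to 58.16, with 2 of 10 above it, so its value there is a reading at background. No single spot set these means. The spots of each member lay in 4 rows and 3 columns of the chip.

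Other miRNAs were low on that array as well. In all, 17 of the 187 (9.09%) lay more than 1 log2 unit below the other 7 arrays there, against 3 at most on any other array, MC-RR replicate 1 (dre-miR-9, dre-miR-125b and dre-miR-125c). The 17 held 3 members and 14 other miRNAs. Furthest below were dre-miR-203a, at -5.05 from the lowest of the other arrays, dre-miR-1 at -4.28 and dre-miR-454b at -4.06, named after their values were seen. MC-RR replicate 2 was also the array with the lowest median intensity, 106, and the part of this in the low values was not tested.

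The cluster partners did not lie as low. On MC-RR replicate 2, the 7 partners stood at -0.50 to 0.10 relative to the mean of the other 3 MC-RR arrays, where dre-miR-19d stood at -3.14 and dre-miR-19c was at background. dre-miR-20b, from the cluster of mir19c, was at -0.36, and dre-miR-93, from that of mir19d, at -0.45. dre-miR-25, which also lies with mir19d, was at 0.12 and dre-miR-363, which lies with mir19c, at -0.096. Mature miRNAs of neighbouring precursors thus departed by different amounts from their levels on the other MC-RR arrays.

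**Figure D3:**
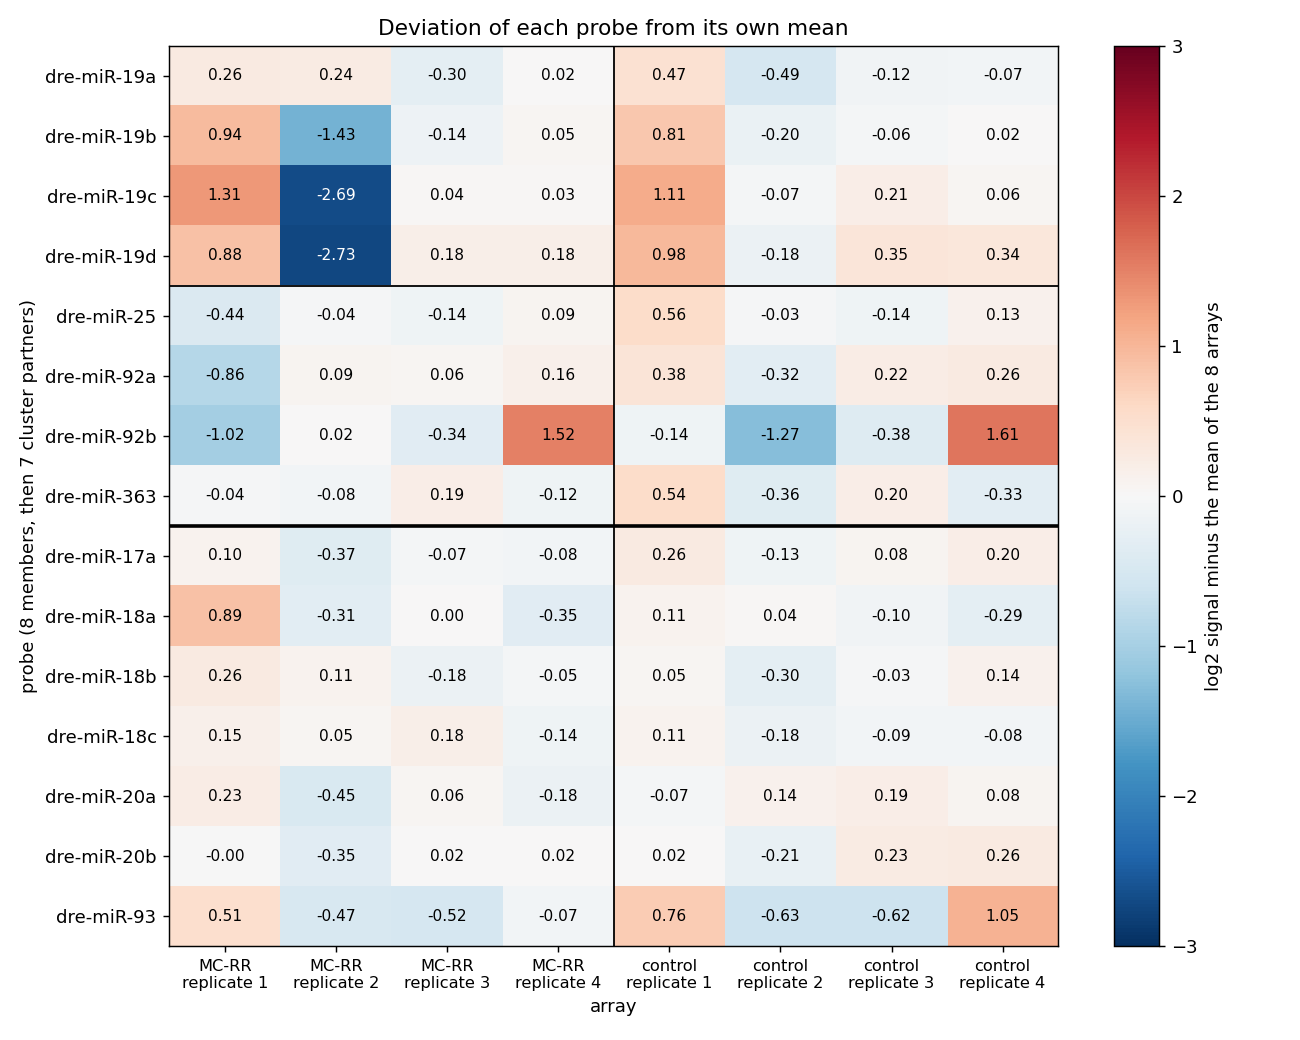
Log2 signal of each probe minus its own mean over the 8 arrays (colour and printed value), with arrays on the x axis (MC-RR left, control right) and the 8 members above 7 cluster partners on the y axis. The darkest cells are dre-miR-19c (-2.69) and dre-miR-19d (-2.73) on MC-RR replicate 2, and dre-miR-92b is at 1.52 and 1.61 on the 2 arrays numbered 4.

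Over all 8 arrays, the Pearson correlation between the signals of dre-miR-19b, dre-miR-19c and dre-miR-19d was 0.94 to 0.98, while that of dre-miR-19a with them was -0.0024 to 0.27. Over the 7 arrays without MC-RR replicate 2, dre-miR-19a correlated with the other 3 at 0.85 to 0.94, and these among themselves at 0.93 to 0.98. The 4 miR-19 probes therefore moved together on 7 arrays and parted on 1. These correlations are descriptions over arrays that share replicate numbers and probes that differ by 1 to 3 bases. All pairs of the 187 miRNAs had a median of 0.0031.

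The arrays numbered 1 were high for the miR-19 group in both treatments. The deviation from the probe's own mean was 0.94 on MC-RR replicate 1 and 0.81 on control replicate 1 for dre-miR-19b, 1.31 and 1.11 for dre-miR-19c, and 0.88 and 0.98 for dre-miR-19d. The difference within the pair was small beside this, at 0.13, 0.20 and -0.10. dre-miR-19a had 0.26 and 0.47 on the same arrays.

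dre-miR-25 had a log2 signal of 10.91, 11.31, 11.21 and 11.44 on the MC-RR arrays and 11.91, 11.32, 11.21 and 11.48 on the control arrays. The extremes of the 8 were the 2 arrays numbered 1, MC-RR the lowest and control the highest. In the other 3 pairs the arrays differed by 0.04 or less. Without normalization between arrays, the log2 signals of MC-RR replicates 1 to 4 were 11.55, 10.83, 11.89 and 11.48. The lowest of these was on replicate 2, the dimmest array. By rank of raw intensity among the 248 zebrafish probes of its own array, dre-miR-25 was lowest on MC-RR replicate 1. It stood there at percentile 89.5, against 90.3 to 94.0 on the other arrays. The mean was 11.22 ± 0.23 with MC-RR and 11.48 ± 0.31 in controls (SD, n = 4 each), a log2 fold change of -0.26 (SE 0.20) with an exact permutation p of 0.229. With median scaling it was 0.023.

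The same pair held the extremes of dre-miR-92a, the miRNA encoded at 2 precursors. Its signal was 10.45, 11.40, 11.37 and 11.47 on the MC-RR arrays and 11.69, 10.99, 11.53 and 11.57 on the control arrays. With a log2 fold change of -0.27 (SE 0.27), the limma p was 0.348 and the exact permutation p 0.429. Without MC-RR replicate 1 the log2 fold change was -0.028, and with median scaling 0.0089.

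A customer-defined probe labelled miR-92 listed the same sequence as dre-miR-92a and was read from other spots of each array. It gave 10.55, 11.32, 11.34 and 11.43 on the MC-RR arrays and 11.65, 10.97, 11.58 and 11.40 on the control arrays. The intensities of both probes differed by -0.15 to 0.05 on the log2 scale within an array, so both sets of spots read alike. The intensities of dre-miR-92a on the MC-RR arrays, before normalization, were 2247, 1915, 4241 and 2897, lowest on replicate 2, the dimmest array. By rank of raw intensity within its own array, dre-miR-92a was lowest on MC-RR replicate 1. It stood there at percentile 85.5 of the 248 zebrafish probes, against 88.7 to 93.5 on the other arrays. The customer-defined probe took its shift on each array from the zebrafish probes, so it is no separate check of the normalization. The log2 fold change of the second probe was -0.24, with an exact permutation p of 0.457. Further customer-defined probes with the seed of this group, hsa-miR-367 and dme-miR-311, were above the blank limit on no array.

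dre-miR-92b varied most of the group. Its signal was 9.78, 10.82, 10.46 and 12.32 on the MC-RR arrays and 10.66, 9.53, 10.42 and 12.41 on the control arrays. Both arrays numbered 4 stood above the other 6, by 1.50 from the next highest, so that the means, 10.84 ± 1.07 with MC-RR and 10.76 ± 1.21 in controls (SD, n = 4 each), had wide errors. That is a log2 fold change of 0.087 (SE 0.70), limma p = 0.904, exact permutation p = 0.829. Blocking same-numbered arrays brought the SE to 0.36. Its sign turned with 1 array left out, at -0.40 without MC-RR replicate 4, -0.32 without control replicate 2 and -0.025 without control replicate 3, and it was 0.64 without control replicate 4.

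dre-miR-363, the most distant sequence of its group, had the smallest SD of the 8 on the MC-RR arrays. It had 9.44, 9.40, 9.68 and 9.36 there and 10.03, 9.12, 9.69 and 9.16 on the control arrays. Its signal on control replicate 4 was not above the blank limit, with 0 of 10 spots above it. The mean was 9.47 ± 0.14 with MC-RR and 9.50 ± 0.44 in controls (SD, n = 4 each). The log2 fold change of -0.026 had an SE of 0.23, limma p = 0.910, exact permutation p = 0.857, and its direction depended on the scaling and on single arrays.

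Among the 4 miRNAs with the seed of miR-25, the Pearson correlation over the 8 arrays had a median of 0.39, with a range of -0.19 to 0.75, and was highest between dre-miR-25 and dre-miR-92a. Over the miR-19 pairs the median was 0.60 and the range -0.0024 to 0.98, and the difference was not tested. Between the 2 seed groups the median was 0.086. Without MC-RR replicate 1, dre-miR-25 and dre-miR-92a stood at 0.55. The highest pair of that seed group was then dre-miR-92a with dre-miR-363, at 0.60. On MC-RR replicate 1, relative to the mean of the other 3 MC-RR arrays, dre-miR-25, dre-miR-92a, dre-miR-92b and dre-miR-363 stood at -0.41, -0.97, -1.42 and -0.037, where the high MC-RR replicate 4 enters the mean for dre-miR-92b. dre-miR-19a stood at 0.27 there, and dre-miR-19b, dre-miR-19c and dre-miR-19d at 1.45, 2.18 and 1.66, against means that include their low MC-RR replicate 2. All of these are normalized values. Without normalization between arrays, dre-miR-25, dre-miR-92a, dre-miR-92b and dre-miR-363 all read lower on MC-RR replicate 2, the dimmest array, than on MC-RR replicate 1. For dre-miR-92b the 2 values were close, at 10.29 and 10.32.

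Of the 10 names in the partner list, which holds the miR-17, miR-18 and miR-93 types of the same clusters, 7 were on the chip and all 7 were tested. At an unadjusted limma p under 0.05, 0 rose and 0 fell. Values were above 0 for 3 and below 0 for 4, with a median of -0.15. Of the partners below 0, dre-miR-17a had the smallest limma p, 0.227 (exact permutation p = 0.2), with a log2 fold change of -0.21. With same-numbered arrays blocked, its limma p was 0.072 (adjusted 0.353). dre-miR-17a and dre-miR-20b were lower in all 4 pairs, 2 of 7 partners (28.6%) against 39 of 187 tested miRNAs (20.9%). dre-miR-18c had the smallest limma p of those above 0, at 0.400 (exact permutation p = 0.286), with a log2 fold change of 0.12.

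**Figure D4:**
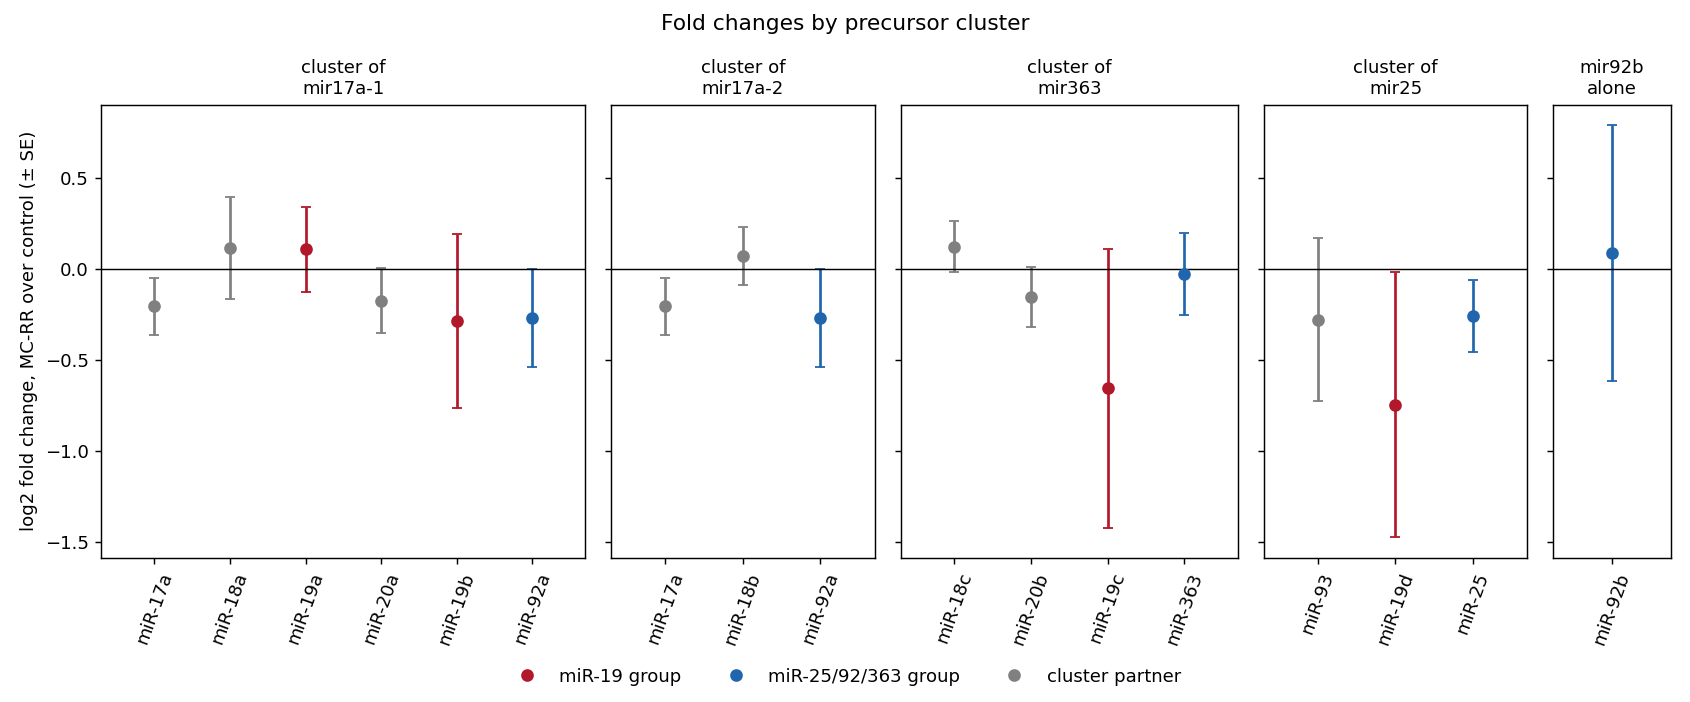
Log2 fold change, MC-RR over control, ± SE (y axis) for each mature miRNA (x axis), in panels by precursor cluster, with the miR-19 group in red, the miR-25/miR-92/miR-363 group in blue and cluster partners in grey. dre-miR-17a and dre-miR-92a appear in 2 panels because each has 2 precursors, and the widest errors are those of dre-miR-19c (0.77), dre-miR-19d (0.73) and dre-miR-92b (0.70).

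Within a cluster the correlations between mature miRNAs over the 8 arrays were uneven. The median between pairs was 0.26 in the cluster of mir17a-1, 0.39 in that of mir25 and 0.26 in that of mir363. Over all pairs of the 187 miRNAs it was 0.0031. dre-miR-19b correlated with dre-miR-17a at 0.84 and with dre-miR-19a, from the same cluster, at 0.27. dre-miR-19b and dre-miR-17a were both lowest on MC-RR replicate 2. Without MC-RR replicate 2, dre-miR-19b and dre-miR-19a stood at 0.90. dre-miR-92a and dre-miR-18a, of that cluster too, stood at -0.81 over the 8 arrays. Both deviated furthest from their own mean on MC-RR replicate 1, dre-miR-18a by 0.89 and dre-miR-92a by -0.86. dre-miR-92a also has a precursor in another cluster. Among the MC-RR arrays, its normalized signal was lowest on replicate 1, and its unnormalized signal on replicate 2, the dimmest array. By rank of raw intensity within the array it was again lowest on replicate 1.

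The tested miRNAs outside the 8 whose signal was most like the mean of the miR-19 group over the 8 arrays were dre-miR-30e* (r = 0.94), dre-miR-10d* (0.91) and dre-miR-196d (0.89). dre-miR-30e* was itself among the miRNAs low on MC-RR replicate 2. It was above the blank limit on 3 MC-RR and 3 control arrays, dre-miR-10d* on 2 and 2, and dre-miR-196d on 3 and 2. For the miR-25/miR-92/miR-363 group they were dre-miR-218b (0.94), dre-miR-10d (0.88) and dre-miR-7b (0.87). In both groups these were picked for the highest r among 179 miRNAs, so high values follow from the choice.

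**Figure D5:**
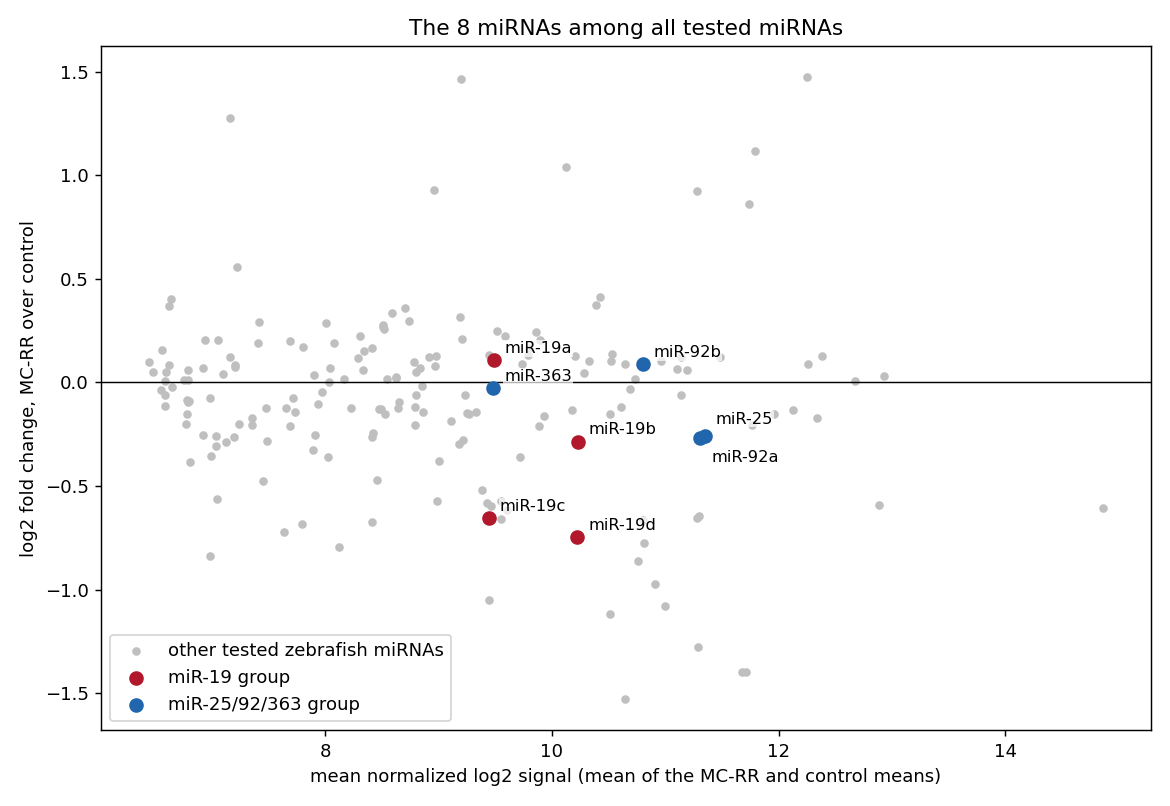
Log2 fold change, MC-RR over control (y axis), against the mean normalized log2 signal (x axis) for the 187 tested miRNAs (grey), with the miR-19 group in red and the miR-25/miR-92/miR-363 group in blue. The 8 miRNAs lie between -0.74 and 0.11, inside the range of -1.53 to 1.47 of all tested miRNAs.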

How the data were processed

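The service provider size-fractionated total RNA of 4 MC-RR and 4 control samples, tailed and tagged the small RNAs, and hybridized each sample to 1 array. As deposited, the scanner output gives each spot's mean pixel intensity on a linear scale, with no background subtraction or normalization by the authors. A second deposited table gives background-subtracted, LOWESS-normalized intensity by the authors, with column medians of 51.7 to 103, and served as an alternative. Its columns matched their own arrays' scanner output at a Spearman's rho of 0.993 or more.

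Spots were corrected with normexp (offset 50), brought to log2, averaged by probe (10 spots) and normalized by cyclic loess over 248 zebrafish probes, in limma 3.58.1 (R 4.3.3). This offset shrinks the fold changes of dim miRNAs. Customer-defined probes were given, on each array, the shift that normalization made in zebrafish probes of like signal. A miRNA was tested where 4 or more of the 8 arrays exceeded their 95th percentile of blank spots (187, with 61 left out). The test was lmFit and eBayes, two-sided and unpaired, with Benjamini-Hochberg adjustment. It was checked on simulated data with independent noise for each probe and array. Such a check does not cover arrays that deviate together. The 4 arrays per group limit the precision. Replicates are described as biological, and the series description calls treated and control embryos paired. Same-numbered arrays deviated together from their group means (r = 0.58, 0.29, 0.53 and 0.78 over 187 miRNAs), so the replicate number was also fitted as a block. Over the 8 members alone, r was 0.90, -0.090, 0.51 and 0.91, so deviations on the arrays numbered 2 were not correlated for them. On control replicate 2 every member was below its group mean. On MC-RR replicate 2 dre-miR-19a, dre-miR-25 and dre-miR-92a were above theirs and the rest below. On the arrays numbered 1, dre-miR-25, dre-miR-92a and dre-miR-363 deviated in opposite directions despite the r of 0.90.

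The members and lists were chosen with earlier results of these data known. All 8 members were named, with, of the partners, the smallest p in each direction, and for each seed group the 3 miRNAs of highest correlation. Alternatives covered normalization, background, filter, spot summary, test, pairing, the source table and single arrays left out. Removal of the G and C trend and the block without the arrays numbered 1 or 2 were added after the data were seen. qPCR and protein measurements were not analysed here.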

Additional observations from a re-analysis of the deposited data

Results flagged for a closer look

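For dre-miR-92a, MC-RR replicate 1 stood apart from the other 3 MC-RR arrays after normalization. Its normalized log2 signal was 10.45, the next was 11.37, and this gap was 0.903 of the range of the 4 arrays. Without normalization between arrays, the log2 signals of MC-RR replicates 1 to 4 were 11.08, 10.91, 12.05 and 11.50, and replicate 1 did not stand apart. By rank of raw intensity within each array, the percentiles were 85.5, 93.5, 92.7 and 91.1, lowest on replicate 1. Sets of 4 arrays were examined for 8 miRNAs in each treatment, 16 in all. The MC-RR set of dre-miR-92a was the only one past the limit for a far value, and chance passes about 1 set in 20. dre-miR-19b, dre-miR-19c and dre-miR-19d on MC-RR replicate 2 did not pass it, since MC-RR replicate 1 lay high for the same miRNAs and widened the range.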

How the results depend on the processing

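None of the 24 alternatives gave a member a p under 0.05. Directions did change. Median scaling gave log2 fold changes of 0.023 for dre-miR-25, 0.0089 for dre-miR-92a and 0.085 for dre-miR-363, and that of dre-miR-363 was 0.19 with quantile normalization and 0.095 on the deposited table. These settings moved the median of all tested miRNAs up by 0.16, 0.11 and 0.12. With the replicate block and both arrays numbered 2 left out it was -0.10 for dre-miR-19a, 0.027 for dre-miR-19b, 0.00083 for dre-miR-19c, -0.14 for dre-miR-19d (direction kept) and -0.31 for dre-miR-92b, and without those numbered 1 it was 0.054 for dre-miR-92a and 0.16 for dre-miR-363. With each array left out, the range was -0.040 to 0.28 for dre-miR-19a, -0.65 to 0.14 for dre-miR-19b, -1.20 to 0.13 for dre-miR-19c, -1.16 to 0.040 for dre-miR-19d, -0.40 to 0.64 for dre-miR-92b and -0.15 to 0.15 for dre-miR-363. It stayed below 0 for dre-miR-25 (-0.35 to -0.12) and dre-miR-92a (-0.42 to -0.028). The cause of these changes was not tested.

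Of all tested miRNAs, 16 had an unadjusted p under 0.05, 8 higher and 8 lower. The number was 3 with no normalization (dre-miR-146a, dre-miR-21 and dre-miR-430c, all higher), 10 with subtraction of the blank median, 30 with the replicate block (11 higher, 19 lower), and 29 when the methods' t-test was paired on that number. It was 42 with the block without the arrays numbered 2, 26 without those numbered 1, and 7 to 18 with each array left out (10 without MC-RR replicate 1 or control replicate 2, 7 without control replicate 3). Quantile normalization split the calls into 9 higher and 3 lower, median scaling into 9 and 2, and the deposited table into 8 and 4. After adjustment 1 miRNA was under 0.05 without background correction and on the deposited table (dre-miR-146a in both) and 1 with the block without the arrays numbered 2 (dre-miR-21). The block changed no call among the 8 members and none after adjustment. Requiring detection on all 8 arrays left 5 members tested. No slide or scan is given, so neither was fitted as a block.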

Other observations

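The star arms dre-miR-19a* and dre-miR-19b*, the opposite strands of 2 members' precursors, were above the blank limit on 1 and 0 of the MC-RR arrays and on 0 and 0 of the control arrays, and were not tested. Across the 187 tested miRNAs, the deviation of a probe from its own mean correlated with its share of G and C at -0.20 to 0.22 on the 8 arrays, and at 0.18 on MC-RR replicate 2.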
